A study of Mus musculus with 33 samples.

Results

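Mouse spleen cells exposed to CpG oligodeoxynucleotides (CpG ODN, short synthetic DNAs with unmethylated CpG motifs) for 8 h were compared with spleen cells kept for 8 h in medium alone. The members are 3 CpG ODN arrays and 3 medium arrays, 6 of the 33 arrays of the study, chosen by their titles and by no measured value. Cells came from female BALB/c mice aged 2 months. The CpG ODN cultures received an equimolar mix of ODN 1555 and ODN 1466 at 1 uM, and the medium cultures received no ODN. A further 3 arrays at 8 h, from cultures with an equimolar mix of the non-CpG ODN 1612 and ODN 1471 at 1 uM, are used for values side by side. Each array set Cy5-labelled cDNA of the spleen cells against Cy3-labelled cDNA of a common reference, the Universal Mouse Reference RNA, pooled from lymphocytes, macrophages, embryo and several organs. No dye was swapped. The design speaks of independent experiments and numbers the repeats, but nothing in the labels says which cultures came from separate mice, so p-values measure only the spread between these samples, which may be technical.

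Unmethylated CpG motifs are recognised by Toll-like receptor 9 in endosomes of B cells and dendritic cells, which signals through the adaptor Myd88 to NF-kB, MAP kinases and interferon regulatory factors. B cells stimulated this way are known to display costimulatory molecules, to leave rest and to prepare for division, which draws on the synthesis of nucleotides, serine-derived one-carbon units and lipids. Interferons made by responding cells induce antiviral genes and parts of the antigen presentation machinery in their neighbours.

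A level below is a log2 ratio of spleen cells over reference, with each array centred on its median. A difference is CpG ODN minus medium on that log2 scale. Rose and fell below mean higher and lower with CpG ODN than with medium at 8 h, not a course over time. The log base is not stated in the sources used here. Base 2 was taken from the range of all values, -6.51 to 8.54, and every log2 value rests on that reading. Differences carry their standard error (SE) from a limma fit with the repeat number as a block, with 3 arrays against 3 unless stated, and a gene was called where its Benjamini-Hochberg adjusted p over all genes tested was below 0.05. Per-array values are given in the order of repeats 1, 2 and 3. The 6 arrays had 10095 to 11113 measured probes, the nearest thing to a depth that the values offer, and pairs among the 9 arrays of 8 h correlated between 0.692 and 0.935. As a check of the labelled cells, 15 B cell markers had a mean level of 1.58 to 1.77 per array with CpG ODN and 1.76 to 2.44 with medium, and 12 T cell markers lay at 1.55 to 2.01 and 1.94 to 2.72. The mean level of 17 markers of non-splenic tissues was -1.08 to -0.83 with CpG ODN and -1.07 to -0.53 with medium.

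Of 9478 genes tested, 1700 were called (17.9%), 689 higher with CpG ODN (7.27%) and 1011 lower (10.7%). A difference of at least 1 was reached by 392 of the genes called higher and 267 of those called lower, and the median difference of all genes was -0.13. The largest rises among genes measured on all 6 arrays were Cxcl11, a chemokine for activated T cells (difference 4.92 ± 0.21), the antiviral genes Ifit3 (4.51 ± 0.32) and Ifit1 (4.06 ± 0.20), the guanylate-binding protein gene Gbp2 (3.74 ± 0.22) and the cytokine Il6 (3.61 ± 0.24). Cxcl11 lay at 5.17, 4.86 and 5.39 on the CpG ODN arrays and at 0.13, 0.18 and 0.33 on the medium arrays. The balance of rises and falls depended on the setting, since quantile normalization gave 614 higher and 483 lower, 56% higher against 40.5% here, and a fit on the 6 compared arrays only gave 181 higher and 67 lower, 73% higher. The count was 1117 without the block, 895 without CpG ODN repeat 2, 1094 without CpG ODN repeat 3, 1017 without medium repeat 2 and 929 without medium repeat 3.

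The metabolic, surface and lymphocyte genes were followed through 24 lists, some of which share genes. Of 331 metabolic genes tested, 34 were called higher and 28 lower (18.7%), close to the 17.9% of all genes. Of 210 surface genes, 22 were called higher and 32 lower (25.7%), and of 190 lymphocyte genes 19 and 31 (26.3%). The 161 distinct genes called in the 3 groups included 149 measured on all 6 arrays, and in 126 of these the CpG ODN and medium arrays did not overlap. This was so for 1355 of all 1625 called genes on those arrays and for 28.6% of all 7721 genes there. The calls rest on the same arrays, so this separation adds no support to them. The call held in every fit without 1 array that could test the gene for 80 of the 161, in the fit without the block for 112 and with quantile normalization for 113. A fit that could not test a gene did not count as a lost call. The fit on the 6 compared arrays only lost the call of 66 of the 108 genes named by size of change. For most genes that loss is not repeated below. Among the 80, Acod1, Cd3g, Slamf1 and Srm were tested in 4 of these fits and Rgs14 in 2. CpG ODN repeat 2 mattered for the most genes, with 65 calls lost without it, against 47 for CpG ODN repeat 3, 59 for medium repeat 2, 58 for medium repeat 3, 24 for CpG ODN repeat 1 and 21 for medium repeat 1. No list was tested as a whole, and list counts are to be read beside the 7.27% higher and 10.7% lower of all genes. The lists were chosen with earlier results of these data known, so a share above that of all genes is no independent result. Because the cells are a mixed population, fewer cells of a type and less RNA per cell cannot be told apart.

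**Figure D1:**
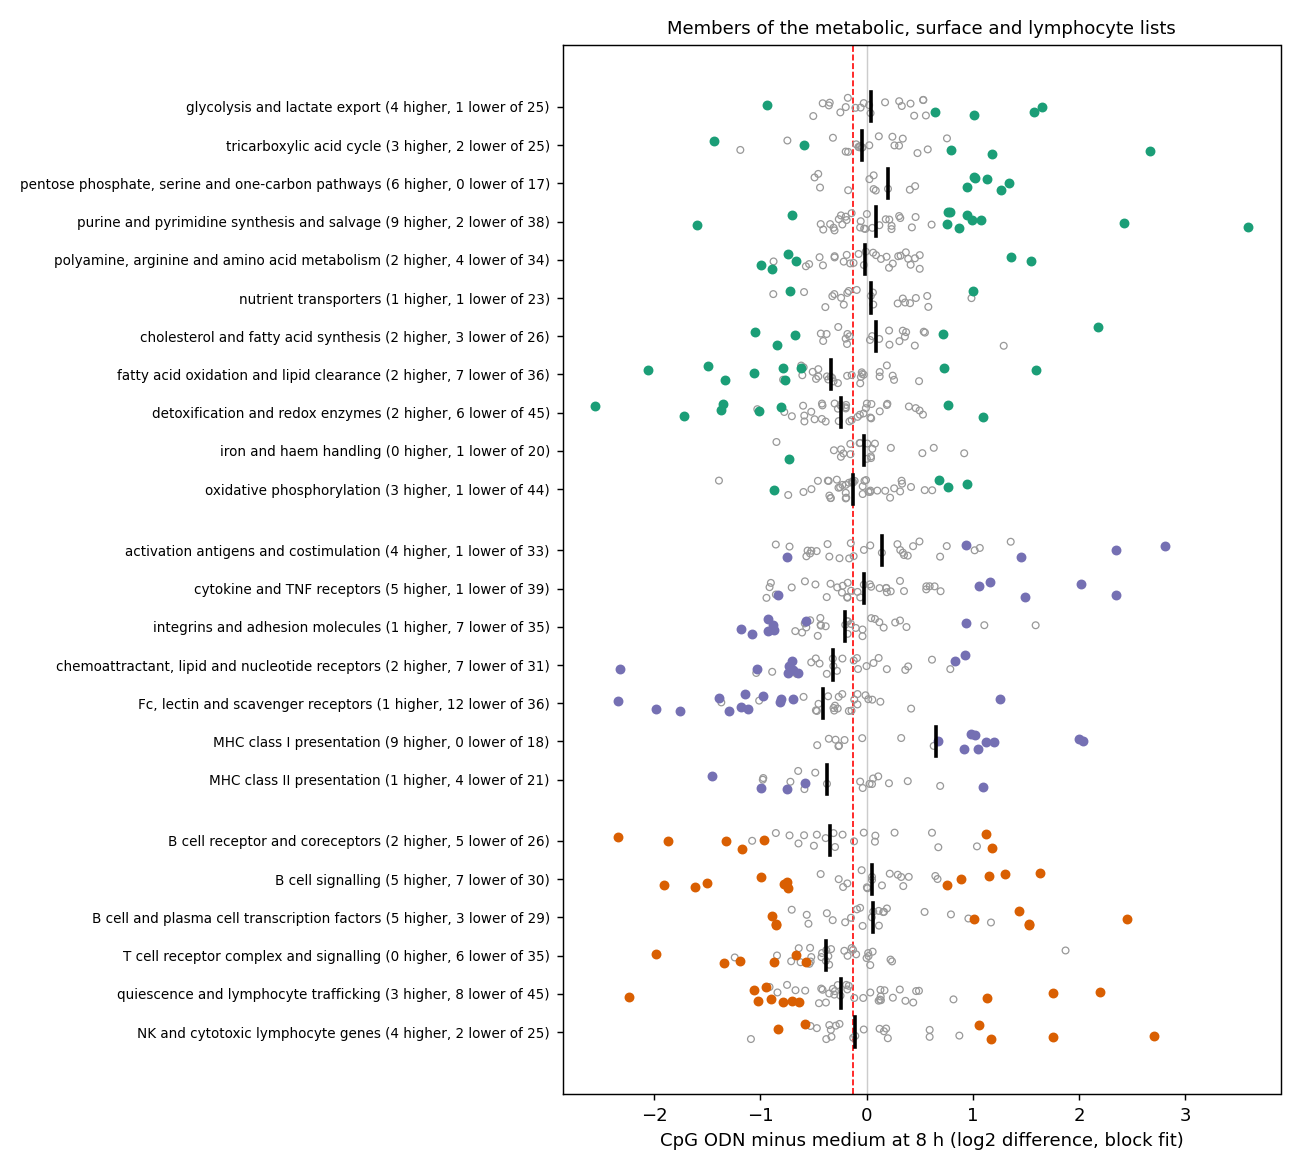
Each point is a gene of a metabolic (green), surface (violet) or lymphocyte (orange) list, placed by its log2 difference between CpG ODN and medium at 8 h; filled points were called, open ones were not, black bars are list medians and the dashed red line is the median of all genes, -0.13. Called genes lie on both sides of 0 in most lists, while the 9 called genes of MHC class I presentation and the 6 of the pentose phosphate, serine and one-carbon list are all higher.

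Genes that make purines, pyrimidines and one-carbon units were among the rises. Of 38 genes of purine and pyrimidine synthesis and salvage, 9 were called higher and 2 lower, and of 17 genes of the pentose phosphate, serine and one-carbon pathways 6 were called higher and 0 lower by limma, with list medians of 0.09 and 0.20. Fitted on the 6 compared arrays only, the counts were 2 higher and 1 lower, and 1 higher and 0 lower. Atic, the enzyme of the last steps of purine ring synthesis, lay at -0.19, 0.77 and 0.59 on the CpG ODN arrays and at -1.30, -2.98 and -1.81 on the medium arrays. All CpG ODN arrays stood above all medium arrays, the control ODN arrays lay at -1.35 ± 0.52 (SD, n = 3), and Atic rose by 2.42 ± 0.35 (adjusted p = 4.5e-05). Shmt2, which moves a one-carbon unit from serine to folate in mitochondria, lay at -0.11, 0.82 and 0.18 against -1.24, -1.0 and -0.88 and rose by 1.34 ± 0.19 (adjusted p = 2.29e-05). The groups did not overlap in this gene either. Mthfd2, the next enzyme of the mitochondrial folate pathway, rose by 1.14 ± 0.17, and Psat1, of serine synthesis, by 1.26 ± 0.23. Psat1 nevertheless stayed far below the reference, at -2.13, -1.38 and -1.69 with CpG ODN.

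The other calls of these pathways ran the same way, with the exceptions of Adssl1 and Dck. Ppat, which catalyses the committed step of purine synthesis, differed by 0.94 ± 0.17, Adsl by 0.99 ± 0.22, and the pentose phosphate enzymes Pgd and Tkt by 0.95 ± 0.22 and 1.01 ± 0.20, all 4 called and named after their values were seen. Cmpk2, a mitochondrial nucleotide kinase that interferons induce, had the largest difference of any metabolic gene and lay at 4.07, 3.75 and 3.30 with CpG ODN against 0.52, 0.01 and -0.17 with medium, a rise of 3.59 ± 0.29 (adjusted p = 1.21e-08). Samhd1, which degrades deoxynucleotides and is also interferon-induced, rose by 1.08 ± 0.23. Adssl1, an adenylosuccinate synthetase, went the other way, from -0.32, -0.69 and -0.98 with medium to -1.84, -2.26 and -2.68 with CpG ODN, a fall of 1.60 ± 0.19 (adjusted p = 1.77e-06). No CpG ODN array reached the level of a medium array. Dck, a deoxycytidine salvage kinase, fell by 0.70 ± 0.23. The call for Dck was lost without CpG ODN repeat 2 or 3 or medium repeat 2 or 3 (adjusted p up to 0.184), without the block (adjusted p 0.0618) and with quantile normalization (adjusted p 0.0521).

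In glycolysis 4 of 25 genes were called higher and 1 lower, and in the tricarboxylic acid cycle 3 of 25 and 2. Hk2, the hexokinase that commits glucose to the cell, lay at 0.32, 1.23 and 0.56 with CpG ODN and at -0.42, 0.05 and -0.55 with medium and rose by 1.01 ± 0.17 (adjusted p = 0.000156). Ldhb, a lactate dehydrogenase subunit, fell by 0.94 ± 0.16. The call for Ldhb was lost with quantile normalization (adjusted p 0.0961, difference -0.56). The 2 isocitrate dehydrogenases called went in opposite directions. Idh1, the cytosolic NADP-linked enzyme, lay at -3.27, -2.88 and -3.29 against -1.85, -1.45 and -1.83 and fell by 1.44 ± 0.23 (adjusted p = 0.000106), while Idh3a, a subunit of the mitochondrial NAD-linked enzyme, lay at -0.89, -0.54 and -0.26 against -1.86, -1.64 and -1.73 and rose by 1.18 ± 0.19 (adjusted p = 9.64e-05). The arrays of each gene separated without overlap. Acod1, which makes itaconate from a cycle intermediate, rose by 2.67 ± 0.28 on 2 CpG ODN and 3 medium arrays and was named after its values were seen.

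Other calls of central carbon metabolism were lost in several of the fits that left out 1 array. Gapdh, a glycolytic enzyme with many pseudogenes whose transcripts a probe may share, lay at -1.93, -0.33 and -0.33 with CpG ODN and -1.43, -3.46 and -2.43 with medium, so that CpG ODN repeat 1 lay below medium repeat 1. Its difference of 1.57 ± 0.51 was a call lost for Gapdh without CpG ODN repeat 2 or 3 or medium repeat 2 or 3 (adjusted p up to 0.388, difference 0.70 to 2.41) and with the mean of its probes (adjusted p 0.169). Slc16a1, a lactate and pyruvate transporter, differed by 0.64 ± 0.21. The call for Slc16a1 was lost without CpG ODN repeat 2 or 3 or medium repeat 1 or 3 (adjusted p up to 0.236), without the block (adjusted p 0.113) and with quantile normalization (adjusted p 0.0536). Dlst differed by 0.80 ± 0.24, a call lost for Dlst without CpG ODN repeat 2 or medium repeat 2 or 3 (adjusted p up to 0.285, difference 0.40 to 1.09) and without the block (adjusted p 0.0893), and Pdhb by -0.59 ± 0.16. The call for Pdhb was lost without CpG ODN repeat 1 or medium repeat 1 or 3 (adjusted p up to 0.089), without the block (adjusted p 0.195) and with quantile normalization (adjusted p 0.14). They are subunits of the oxoglutarate and pyruvate dehydrogenase complexes. Glycolytic genes without a call included Ldha at 0.53 ± 0.26, Pkm at 0.33 ± 0.24 and the glucose transporter Slc2a1 of the nutrient transporter list at -0.20 ± 0.26.

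Fasn rose, while Lpin1 of lipid synthesis and Lpl and Abca1 of lipid clearance fell. Fasn, the fatty acid synthase, lay at 0.06, 0.68 and -0.05 with CpG ODN, at -0.90, -2.86 and -2.10 with medium and at -1.36 ± 0.38 (SD, n = 3) in the control ODN cultures, and it rose by 2.18 ± 0.35 (adjusted p = 0.00011). Every CpG ODN array stood above every medium array. In the whole synthesis list 2 of 26 genes were called higher and 3 lower, and 1 and 1 without the block. Lpin1, a phosphatidate phosphatase, fell by 1.05 ± 0.19 (adjusted p = 0.000587). Of 36 genes of fatty acid oxidation and lipid clearance, 7 were called lower and 2 higher, with a list median of -0.33, and 4 lower and 0 higher without CpG ODN repeat 2. Lpl, the lipase that frees fatty acids from lipoproteins, lay at -2.30, -2.34 and -3.79 against -0.34, -0.38 and -1.53 and fell by 2.06 ± 0.19 (adjusted p = 1.31e-07). The fall was close to 2.06 in each repeat although the levels of repeat 3 were lower in both groups. Abca1, a cholesterol exporter, lay at 0.36, -0.69 and -0.55 against 1.04, 1.30 and 1.27 and fell by 1.50 ± 0.23 (adjusted p = 9.39e-05), and Acadm, a dehydrogenase of fatty acid oxidation, fell by 1.33 ± 0.25.

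The lipid calls that follow were each lost in fits that left out 1 array. Pnpla2, the lipase that opens fat droplets, rose by 1.60 ± 0.37, a call lost for Pnpla2 without CpG ODN repeat 2 or medium repeat 2 (adjusted p up to 0.0811), and the nuclear receptor gene Ppard by 0.72 ± 0.24. The call for Ppard was lost without CpG ODN repeat 2 or 3 or medium repeat 2 or 3 (adjusted p up to 0.285, difference 0.48 to 0.87), without the block (adjusted p 0.0649) and with quantile normalization (adjusted p 0.0804). Scd1, a fatty acid desaturase, fell by 0.84 ± 0.27. The call for Scd1 was lost without CpG ODN repeat 2 or 3 or medium repeat 2 or 3 (adjusted p up to 0.272, difference -0.53 to -1.12), without the block (adjusted p 0.189) and with quantile normalization (adjusted p 0.159). Fads1, another desaturase, fell by 0.68 ± 0.22, a call lost for Fads1 without CpG ODN repeat 1 or 3 or medium repeat 1 or 3 (adjusted p up to 0.167), without the block (adjusted p 0.24) and with quantile normalization (adjusted p 0.498, difference -0.24), and Fdps, of the isoprenoid pathway, rose by 0.72 ± 0.23. The call for Fdps was lost without CpG ODN repeat 1 or 3 or medium repeat 1, 2 or 3 (adjusted p up to 0.176), without the block (adjusted p 0.165) and with quantile normalization (adjusted p 0.058).

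The detoxification enzymes Ephx1, Mgst1 and catalase fell. Of 45 genes of detoxification and redox defence 6 were called lower and 2 higher, with a list median of -0.24, and the share called, 17.8%, was close to that of all genes, 17.9%. Ephx1, the microsomal epoxide hydrolase, lay at -2.26, -3.23 and -3.20 on the CpG ODN arrays, at -0.39, -0.28 and -0.34 on the medium arrays and at -0.16 ± 0.08 (SD, n = 3) in the control ODN cultures. Its fall of 2.56 ± 0.25 (adjusted p = 1.82e-07) was the second largest among all genes measured on the 6 arrays, after Crisp3. Mgst1, a membrane-bound glutathione transferase, lay at -2.65, -3.75 and -3.81 against -1.81, -1.23 and -2.0 and fell by 1.72 ± 0.27, and catalase (Cat) lay at 0.10, 0.26 and -0.20 against 1.20, 2.03 and 1.04 and fell by 1.37 ± 0.27 (adjusted p = 8.25e-05 and 0.00112). The groups did not overlap in these 3 genes. Keap1, the sensor that holds back the oxidant response, rose by 0.76 ± 0.17, a call lost for Keap1 without the block (adjusted p 0.0878), and mitochondrial thioredoxin Txn2 by 1.10 ± 0.24. The call for Txn2 was lost without CpG ODN repeat 2 or medium repeat 2 (adjusted p up to 0.0543).

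The remaining metabolic lists held few calls. Of 44 genes of oxidative phosphorylation 3 were called higher and 1 lower, and of 34 genes of polyamine, arginine and amino acid metabolism 2 and 4. Among 23 nutrient transporters 1 was called higher and 1 lower, and among 20 genes of iron and haem handling 1 was called lower, Hfe, a partner of the transferrin receptor, which fell by 0.73 ± 0.14 (adjusted p = 0.00102). Bcat1, the cytosolic aminotransferase of branched-chain amino acids, rose by 1.36 ± 0.31. The call for Bcat1 was lost without medium repeat 3 (adjusted p 0.0511). Srm, the spermidine synthase, rose by 1.54 ± 0.35 on 3 CpG ODN and 2 medium arrays and was named after its values were seen. Cytochrome c (Cycs) rose by 0.95 ± 0.28, a call lost for Cycs without CpG ODN repeat 1 or 3 or medium repeat 1 or 3 (adjusted p up to 0.115) and without the block (adjusted p 0.158), and Atp5b, the catalytic subunit of ATP synthase, by 0.76 ± 0.21. The call for Atp5b was lost without CpG ODN repeat 2 or 3 or medium repeat 2 or 3 (adjusted p up to 0.142). None of the 4 calls of oxidative phosphorylation and neither of the 2 of the transporters held in every fit without 1 array.

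Promoters were read for the metabolic genes because purine and one-carbon genes were among the rises. The letters CACGTG, the E-box, which reads the same on both strands, stand in 7.15% of 32851 RefSeq promoters (GRCm38.p6, windows of 300 bases that reach from upstream of a start site into the transcript) and in the promoter of 11.1% of the 7529 tested genes that have one there. Of 285 metabolic genes with a promoter, among 331 tested, they stand in 3 of 30 called higher, 3 of 21 called lower and 28 of 234 not called. The shares of 10.0%, 14.3% and 12% are all close to that of the tested genes. The promoters of Atic, which rose, and of Abca1, which fell, are shown to set 1 match of each direction side by side, with the match in capitals. In Atic, on the plus strand at chr1:71556906-71557205, it begins at -7 from the start site, and in Abca1, on the minus strand at chr4:53159846-53160145, at -147.
Atic: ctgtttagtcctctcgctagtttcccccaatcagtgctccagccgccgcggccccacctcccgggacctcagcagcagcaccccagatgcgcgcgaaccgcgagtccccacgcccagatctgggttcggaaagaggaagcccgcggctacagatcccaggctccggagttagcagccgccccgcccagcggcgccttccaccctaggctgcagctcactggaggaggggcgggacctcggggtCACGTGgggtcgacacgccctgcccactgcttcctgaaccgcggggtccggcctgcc
Abca1: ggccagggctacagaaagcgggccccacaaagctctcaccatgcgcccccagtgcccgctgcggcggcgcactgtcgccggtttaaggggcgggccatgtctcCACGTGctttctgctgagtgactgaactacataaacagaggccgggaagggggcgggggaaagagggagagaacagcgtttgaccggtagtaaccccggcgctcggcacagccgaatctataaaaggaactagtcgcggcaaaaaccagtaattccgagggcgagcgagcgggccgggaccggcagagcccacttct

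Genes of MHC class I presentation were among the rises. Of 18 genes of MHC class I presentation 9 were called higher and 0 lower by limma, with a list median of 0.65, the highest of the 24 lists. The count called higher was 6 without the block, 5 without medium repeat 2 and 2 on the 6 compared arrays only. With array weights 7 were called higher and 2 lower, and without medium repeat 1 it was 6 and 1. Of the 9 calls, 5 held in every fit without 1 array. In Cd1d1 the groups overlapped, and its call (difference 1.12 ± 0.39) was lost in 5 of those fits. Psmb10, a subunit of the immunoproteasome that cuts peptides for class I, lay at 1.45, 1.55 and 1.70 with CpG ODN and at -0.03, -1.29 and -0.10 with medium and rose by 2.04 ± 0.28 (adjusted p = 1.8e-05). Tapbp, tapasin, which helps to load the peptides, lay at 1.67, 2.02 and 1.39 against 0.50, 0.65 and 0.31 and rose by 1.20 ± 0.19 (adjusted p = 0.000132). In neither gene did a medium array reach a CpG ODN array. H2-T24, a nonclassical class I gene, rose by 1.99 ± 0.36, with the caution that class I genes are near-identical in sequence and a probe may detect several. The tapasin-related gene Tapbpl rose by 1.05 ± 0.18 and H2-T23 by 0.98 ± 0.19, both named after their values were seen. The classical class I gene H2-D1 at -0.27 ± 0.31, beta-2 microglobulin (B2m) at -0.26 ± 0.29 and the peptide transporter subunit Tap1 at 0.32 ± 0.21 were not called.

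In the class II list 1 of 21 genes was called higher and 4 lower, with a median of -0.37. This was 1 and 1 without the block, with quantile normalization and on the arrays of 8 h only. H2-DMb1, a chain of the H2-DM complex that loads class II molecules, lay at 1.50, 0.46 and 1.16 against 2.39, 2.06 and 3.04 and fell by 1.45 ± 0.23 (adjusted p = 8.3e-05). All CpG ODN arrays lay below all medium arrays. Rfx5, a transcription factor of class II promoters, lay at 0.95, 1.11 and 1.52 against 0.20, -0.18 and 0.27 and rose by 1.09 ± 0.21 (adjusted p = 0.000852). The class II chains H2-Aa at 0.06 ± 0.40 and H2-Eb1 at -0.97 ± 0.52 and the class II transactivator Ciita at -0.48 ± 0.20 were not called. The endosomal proteases Ctsl and Ctsb fell by 0.99 ± 0.30 and 0.75 ± 0.21, calls lost for Ctsl without CpG ODN repeat 1 or 2 or medium repeat 2 or 3 (adjusted p up to 0.187), without the block (adjusted p 0.0593) and with quantile normalization (adjusted p 0.498, difference -0.43) and for Ctsb without CpG ODN repeat 1 or 3 or medium repeat 1 (adjusted p up to 0.102), without the block (adjusted p 0.136) and with quantile normalization (adjusted p 0.0631).

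The interferon-response motif GAAA, any 2 bases, then GAAA, on either strand, was searched in the promoters of surface genes because 9 class I genes were called higher. It stands in 3.44% of all promoters and in those of 3.73% of tested genes. Of 162 surface genes with a promoter, among 210 tested, 2 of 16 called higher, 3 of 24 called lower and 5 of 122 not called hold it (12.5%, 12.5% and 4.10%), and of 6 class I genes called higher with a promoter 2 hold it. Those 2, H2-T23 and Psme1, an activator subunit of the proteasome, are shown beside Fcrla, a match in a gene that fell. Psme1 differed by 0.67 ± 0.22. The call for Psme1 was lost without CpG ODN repeat 1 or 2 or medium repeat 1 or 2 (adjusted p up to 0.158) and without the block (adjusted p 0.127). The match is in capitals, reads TTTC, 2 bases, TTTC where it lies on the other strand, and begins at -124 from the start site in H2-T23 (minus strand, chr17:36032652-36032951), at 9 in Psme1 (plus strand, chr14:55578244-55578543) and at -192 in Fcrla (minus strand, chr1:170927534-170927833).
H2-T23: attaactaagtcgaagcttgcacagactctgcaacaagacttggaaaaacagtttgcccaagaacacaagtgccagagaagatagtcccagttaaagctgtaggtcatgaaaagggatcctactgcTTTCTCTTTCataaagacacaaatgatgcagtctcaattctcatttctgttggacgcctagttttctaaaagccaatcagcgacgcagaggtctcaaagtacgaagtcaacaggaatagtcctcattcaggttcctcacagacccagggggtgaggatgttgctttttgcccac
Psme1: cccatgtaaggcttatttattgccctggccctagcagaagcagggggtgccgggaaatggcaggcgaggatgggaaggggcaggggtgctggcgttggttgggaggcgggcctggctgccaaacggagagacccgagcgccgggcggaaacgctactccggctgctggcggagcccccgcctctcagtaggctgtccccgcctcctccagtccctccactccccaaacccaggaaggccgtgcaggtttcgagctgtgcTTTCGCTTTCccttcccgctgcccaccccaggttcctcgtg
Fcrla: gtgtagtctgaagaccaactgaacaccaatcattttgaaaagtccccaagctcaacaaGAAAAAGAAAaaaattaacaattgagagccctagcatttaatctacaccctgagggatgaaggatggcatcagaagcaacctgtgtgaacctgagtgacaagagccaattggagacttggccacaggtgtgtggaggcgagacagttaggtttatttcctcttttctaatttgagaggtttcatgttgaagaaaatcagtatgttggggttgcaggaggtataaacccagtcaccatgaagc

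The activation antigen genes Cd69 and Cd40 rose. Of 33 activation antigens and costimulatory molecules 4 were called higher and 1 lower, and of 39 cytokine and TNF receptors 5 and 1. In the first list 15.2% of genes were called, below the 17.9% of all genes. The second gave 3 and 0 without the block. Cd69, an early activation antigen of lymphocytes, lay at 5.35, 5.48 and 6.11 with CpG ODN, at 2.55, 3.0 and 2.95 with medium and at 2.46 ± 0.78 (SD, n = 3) in the control ODN cultures, and it rose by 2.81 ± 0.45 (adjusted p = 0.000136). Cd40, the receptor through which T cells help B cells, lay at 3.50, 3.74 and 4.31 against 2.13, 2.15 and 2.92 and rose by 1.45 ± 0.29 (adjusted p = 0.00141). Both genes separated the groups, with repeat 3 highest among the CpG ODN arrays. The costimulatory gene Cd86 differed by 0.44 ± 0.36 and was not called, and Slamf1 rose by 2.35 ± 0.23 on 2 CpG ODN and 3 medium arrays, named after its values were seen. Cd44, the hyaluronan receptor, differed by 0.93 ± 0.24. The call for Cd44 was lost without CpG ODN repeat 2 or medium repeat 2 (adjusted p up to 0.13). Tnfsf13b, which encodes the B cell survival factor BAFF, fell by 0.75 ± 0.24. The call for Tnfsf13b was lost without CpG ODN repeat 2 or 3 or medium repeat 2 or 3 (adjusted p up to 0.323, difference -0.39 to -1.01), without the block (adjusted p 0.0753) and with quantile normalization (adjusted p 0.157).

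Il15ra, which presents interleukin 15 to neighbouring lymphocytes, lay at 2.51, 2.21 and 2.79 with CpG ODN and at 0.53, -0.23 and 0.17 with medium and rose by 2.34 ± 0.22 (adjusted p = 4.96e-07). Tnfrsf21, death receptor 6, lay at 1.26, 2.12 and 0.97 against 0.01, -1.18 and -0.55 and rose by 2.02 ± 0.29 (adjusted p = 3.71e-05). The lowest CpG ODN array stood well above the highest medium array in both. Il1r1, the interleukin 1 receptor, rose by 1.16 ± 0.25 and was named after its values were seen. Il10ra, the interleukin 10 receptor, lay at 1.73, 2.47 and 2.75 against 0.43, 0.06 and 1.98, with medium repeat 3 inside the CpG ODN range, and its difference of 1.49 ± 0.49 was a call lost for Il10ra without CpG ODN repeat 1 or 2 or medium repeat 2 or 3 (adjusted p up to 0.236) and without the block (adjusted p 0.119).

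Receptors of phagocytes and B cells were among the falls. Of 36 Fc, lectin and scavenger receptors 12 were called lower and 1 higher, with a list median of -0.41, the lowest of the 24 lists. The count called lower was 6 without the block, 7 without CpG ODN repeat 3, 6 without medium repeat 3 and 4 on the 6 compared arrays only. Fcrla, an intracellular Fc-receptor-like protein of B cells, lay at 2.76, 2.91 and 3.42 with CpG ODN, at 4.64, 5.93 and 5.53 with medium and at 5.20 ± 0.16 (SD, n = 3) in the control ODN cultures, and fell by 2.34 ± 0.37 (adjusted p = 0.000136). Cd93, a lectin-domain glycoprotein of myeloid and progenitor cells, lay at 0.42, -0.07 and 0.20 against 2.39, 2.45 and 1.66 and fell by 1.98 ± 0.26 (adjusted p = 1.01e-05). Clec7a, the beta-glucan receptor Dectin-1, lay at 1.19, -0.59 and 0.05 against 1.55, 2.59 and 1.77 and fell by 1.75 ± 0.35 (adjusted p = 0.00125). The groups stood apart in all 3 genes, narrowly so in Clec7a, where CpG ODN repeat 1 came close to medium repeat 1. The 1 receptor of the list called higher was Fcgr1, the high-affinity receptor for IgG, which lay at 0.46, -0.75 and -0.93 against -1.18, -1.91 and -1.88 and rose by 1.25 ± 0.20 (adjusted p = 9.49e-05).

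Markers of monocytes and macrophages, 4 of 17 called lower and 1 higher, had a mean level over 14 of them of 0.08 to 0.54 per CpG ODN array and 0.30 to 0.89 per medium array. Cd14, Cd68, Cd163 and Fcgr1 stand both among these markers and in the receptor list. Of 12 markers of neutrophils and their precursors 2 were called lower, S100a8 by 1.56 ± 0.29 and Crisp3 by 4.12 ± 0.84, and 10 were not called. The mean of the 5 on all arrays was 0.69 to 1.96 with CpG ODN and 2.60 to 3.13 with medium. Those 5 include Crisp3 and S100a8, and the median difference of the 12 was -0.53. Crisp3, counted here among the neutrophil markers, lay at 2.11, -2.36 and 1.96 against 3.99, 5.74 and 4.35. Whether it marks neutrophils in these cells was not tested. CpG ODN repeat 2 stood far below the other 2 CpG ODN arrays, and the difference of Crisp3 was -2.30 without that array. The part of these cells in the receptor falls was not tested.

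Of 35 integrins and adhesion molecules 7 were called lower and 1 higher, and of 31 receptors for chemoattractants, lipids and nucleotides 7 and 2, with list medians of -0.20 and -0.31. With quantile normalization these were 3 lower and 2 higher, and 4 and 2, and on the 6 compared arrays only no gene of either list was called by limma. Itgav, an integrin alpha chain, lay at -1.94, -1.82 and -2.25 against -1.04, -0.16 and -1.26 and fell by 1.18 ± 0.22 (adjusted p = 0.000577). The call for Itgav was lost with the mean of its probes (adjusted p 0.286). Itgb7, the beta chain of gut-homing integrins, lay at -0.07, -0.25 and -0.06 against 0.73, 0.89 and 1.24 and fell by 1.08 ± 0.23 (adjusted p = 0.00205). Cd34, an adhesion molecule of progenitor cells, fell by 0.93 ± 0.24 at levels far under the reference. The call for Cd34 was lost with quantile normalization (adjusted p 0.227, difference -0.40). C3ar1, the receptor for complement fragment C3a, was lower than medium by 1.03 ± 0.20 and Gpr65, an acid-sensing receptor, higher by 0.93 ± 0.22 (adjusted p = 0.00111 and 0.00528). The CpG ODN mean of C3ar1 was 0.57 ± 0.29 at 4 h and 0.63 ± 0.47 at 8 h (SD, n = 4 and 3). Its medium mean was 0.82 ± 0.45 and 1.66 ± 0.28.

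P2ry10, a lysophospholipid receptor of lymphocytes, lay at 5.90, 5.80 and 2.08 with CpG ODN and at 6.28, 7.39 and 7.08 with medium. CpG ODN repeat 3 stood far below the other CpG ODN arrays, which lay just under the lowest medium array. The difference of -2.32 ± 0.51 (adjusted p = 0.00287) was a call lost for P2ry10 without CpG ODN repeat 3 or medium repeat 3 (adjusted p up to 0.0671, difference -1.24 to -3.12) and with quantile normalization (adjusted p 0.0564, difference -1.49), and it was -1.24 without CpG ODN repeat 3. Cxcr3, the receptor of Cxcl11, fell by 0.74 ± 0.25, a call lost for Cxcr3 without CpG ODN repeat 1, 2 or 3 or medium repeat 1, 2 or 3 (adjusted p up to 0.136), without the block (adjusted p 0.0895) and with quantile normalization (adjusted p 0.172), and P2ry14, a receptor for UDP-sugars, rose by 0.83 ± 0.23. The call for P2ry14 was lost without CpG ODN repeat 2 or medium repeat 2 (adjusted p up to 0.0993).

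**Figure D2:**
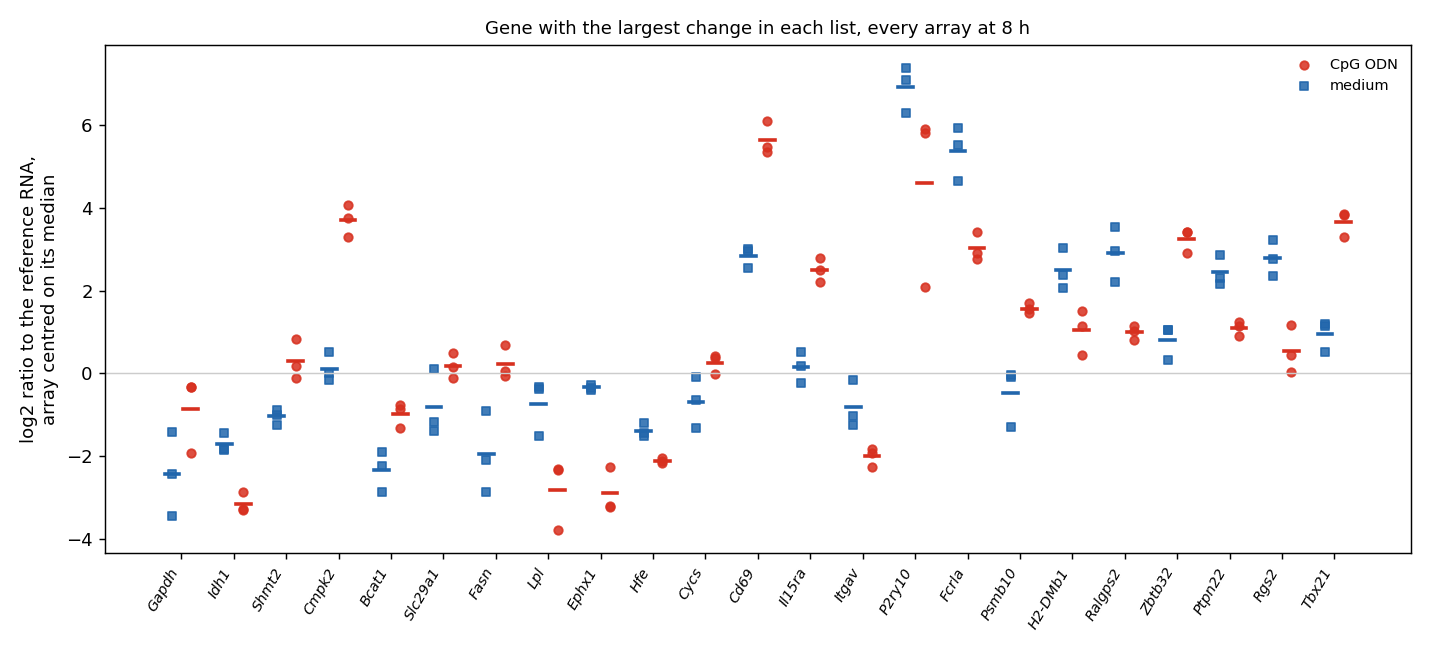
Levels on every array at 8 h (log2 ratio to the reference RNA) for the gene with the largest called change in each list among genes on all 6 arrays; circles are the 3 CpG ODN arrays, squares the 3 medium arrays and bars the means. Cmpk2, Cd69 and Tbx21 stand clear above medium, Ephx1, Fcrla and Rgs2 clear below, and in P2ry10 a single CpG ODN array at 2.08 lies apart from the others.

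The B cell receptor and its signalling chain changed gene by gene. Of 26 genes of the B cell receptor and coreceptors 5 were called lower and 2 higher, and of 30 B cell signalling genes 7 and 5. Cd79b, a signalling chain of the receptor, lay at 1.15, 1.10 and 1.47 with CpG ODN and at 2.64, 3.25 and 3.43 with medium and fell by 1.87 ± 0.29 (adjusted p = 9.83e-05). The partner chain Cd79a, measured on 3 CpG ODN and 2 medium arrays, differed by 1.04 ± 0.65 and was not called, nor was the heavy chain Ighm at -1.08 ± 0.52. Cd55, a complement regulator, fell by 1.32 ± 0.33, a call lost for Cd55 without CpG ODN repeat 2 or medium repeat 2 or 3 (adjusted p up to 0.0829), and Ly6d, a surface protein of early B cells, rose by 1.18 ± 0.27 (adjusted p = 0.00327). Of 17 B cell markers 2 were called lower, Cd79b and Cr2, the complement receptor, which fell by 1.17 ± 0.32 but was lost for Cr2 without CpG ODN repeat 2 or medium repeat 2 or 3 (adjusted p up to 0.12). Their mean levels per array, given above, overlapped between the groups.

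Among the signalling genes, 3 falls and 2 rises held in every fit without 1 array among those named by size. Ralgps2, an exchange factor for Ral GTPases, lay at 0.81, 1.14 and 1.03 against 2.20, 3.54 and 2.96 and fell by 1.90 ± 0.23 (adjusted p = 5.81e-06). The adaptors Dok3, which dampens signalling of the receptor, and Lat2 fell by 1.62 ± 0.26 and 1.51 ± 0.22 (adjusted p = 0.000144 and 4.51e-05). Swap70, which couples signalling to the actin skeleton, lay at 3.53, 3.44 and 3.99 against 1.74, 1.93 and 2.41 and rose by 1.63 ± 0.24 (adjusted p = 3.88e-05). The groups stood apart in Ralgps2 and in Swap70. Pik3ap1, an adaptor for phosphoinositide 3-kinase, rose by 1.15 ± 0.21. Vav1, which signals downstream of antigen receptors, lay at 0.85, 1.63 and 1.86 against 1.15, -1.63 and 0.92, with medium repeat 2 far below the other medium arrays and medium repeat 1 inside the CpG ODN range. Its difference of 1.30 ± 0.38 was a call lost for Vav1 without CpG ODN repeat 2 or medium repeat 2 (adjusted p up to 0.309, difference 0.51 to 1.96).

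Of 29 transcription factors of B cells and plasma cells 5 were called higher and 3 lower. Zbtb32, a zinc finger repressor, lay at 2.91, 3.43 and 3.41 with CpG ODN and at 1.04, 0.31 and 1.05 with medium and rose by 2.45 ± 0.31 (adjusted p = 9.44e-06). Irf4, which is needed for plasma cell formation, lay at 2.19, 2.70 and 2.32 against 0.95, 0.89 and 0.77 and rose by 1.53 ± 0.25 (adjusted p = 0.000141), and its relative Irf8 rose by 1.53 ± 0.34. The groups separated in Zbtb32 and Irf4. Batf rose by 1.44 ± 0.28 and was named after its values were seen. Prdm1, the repressor that drives plasma cell formation, went the other way by -0.85 ± 0.27. The call for Prdm1 was lost without CpG ODN repeat 1 or 2 or medium repeat 1, 2 or 3 (adjusted p up to 0.168), without the block (adjusted p 0.055) and with quantile normalization (adjusted p 0.123). Tcf3, which encodes E2A, fell by 0.89 ± 0.23, a call lost for Tcf3 without CpG ODN repeat 2 or medium repeat 2 (adjusted p up to 0.0757) and with the mean of its probes (adjusted p 0.0941), and Mef2c by 0.86 ± 0.21. The call for Mef2c was lost without CpG ODN repeat 3 or medium repeat 3 (adjusted p up to 0.0589). The B cell factors Pax5 (2 arrays against 2) and Bcl6 differed by 1.17 ± 0.57 and 0.11 ± 0.23 and were not called.

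In the T cell receptor complex and its signalling 6 of 35 genes were called lower and 0 higher by limma, with a list median of -0.38. The count called lower was 3 with quantile normalization and 1 without CpG ODN repeat 2, without CpG ODN repeat 3 or on the 6 compared arrays only. Ptpn22, a phosphatase that restrains receptor signalling, lay at 1.25, 0.89 and 1.15 against 2.16, 2.86 and 2.29 and fell by 1.34 ± 0.26 (adjusted p = 0.00105). Cd3g, a chain of the receptor complex, fell by 1.98 ± 0.33 on 2 CpG ODN and 3 medium arrays and was named after its values were seen, while Cd3d at -1.24 ± 0.58 and Cd3e at -0.36 ± 0.24 were not called. The chromatin organiser Satb1 fell by 0.87 ± 0.30, a call lost for Satb1 without CpG ODN repeat 1, 2 or 3 or medium repeat 2 or 3 (adjusted p up to 0.244) and with quantile normalization (adjusted p 0.0595), and the adaptor Lat by 0.66 ± 0.21. The call for Lat was lost without CpG ODN repeat 1, 2 or 3 or medium repeat 1 or 3 (adjusted p up to 0.171), without the block (adjusted p 0.116) and with quantile normalization (adjusted p 0.0969). Of 16 T cell markers 2, Cd3g and Lat, were called lower, and their mean levels per array are given above. The part of T cell number was not tested.

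Rgs2 and Btg2 fell among the genes tied to lymphocyte rest. Of 45 such genes 8 were called lower and 3 higher, with a list median of -0.25, while all genes also leaned lower. The balance was 3 and 3 without medium repeat 2, 4 and 4 without medium repeat 3, and 1 lower and 2 higher on the 6 compared arrays only. Rgs2, a regulator of G protein signalling, lay at 1.16, 0.03 and 0.45 with CpG ODN, at 2.35, 3.22 and 2.78 with medium and at 2.56 ± 0.16 (SD, n = 3) in the control ODN cultures, and fell by 2.24 ± 0.29 (adjusted p = 8.29e-06). Btg2, an antiproliferative gene, lay at 0.18, 0.05 and -0.12 against 0.67, 1.11 and 1.18 and fell by 0.95 ± 0.21 (adjusted p = 0.00327). The cell cycle inhibitor genes of this list went both ways. Cdkn2d, an inhibitor of cyclin D kinases, lay at 1.45, 1.83 and 1.83 against 0.02, -1.14 and -0.35 and rose by 2.19 ± 0.29 (adjusted p = 1.17e-05), whereas its relative Cdkn2c fell by 1.03 ± 0.23. The call for Cdkn2c was lost without medium repeat 2 (adjusted p 0.0519) and with quantile normalization (adjusted p 0.121, difference -0.63). Slfn1 and Slfn3, Schlafen genes first tied to T cell quiescence and close to each other in sequence, rose by 1.75 ± 0.41 and 1.13 ± 0.21 (adjusted p = 0.00425 and 0.00072).

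Of 25 genes of NK and cytotoxic lymphocytes 4 were called higher and 2 lower, and the list median, -0.11, turned to 0.08 with quantile normalization. Tbx21, the T-bet transcription factor of interferon gamma producing cells, lay at 3.30, 3.84 and 3.84 with CpG ODN and at 1.15, 0.52 and 1.20 with medium and rose by 2.70 ± 0.30 (adjusted p = 1.55e-06). The control ODN arrays lay at 1.30 ± 0.34 (SD, n = 3). Ifng, which encodes interferon gamma, lay at 2.79, 4.01 and 4.10 against 2.50, 1.99 and 2.90, with CpG ODN repeat 1 inside the medium range, and its rise of 1.17 ± 0.30 was a call lost for Ifng without CpG ODN repeat 2 or medium repeat 2 (adjusted p up to 0.107). Gzmb, the protease granzyme B, rose by 1.75 ± 0.52 on 3 CpG ODN and 2 medium arrays, named after its values were seen. The call for Gzmb was lost without CpG ODN repeat 2 or 3 (adjusted p up to 0.207). Klrb1b, an inhibitory NK receptor, fell by 0.58 ± 0.19. The call for Klrb1b was lost without CpG ODN repeat 2 or 3 or medium repeat 1, 2 or 3 (adjusted p up to 0.168), without the block (adjusted p 0.124) and with quantile normalization (adjusted p 0.276, difference -0.38). Of 7 NK cell markers 0 were called by limma in either direction. Of 11 dendritic cell markers 2 were called higher, Ccl3 and Ly6d, and 0 lower by limma. The other 9 were not called, and the median difference of the 11 was 0.11. The mean level of the 9 markers on all arrays was 1.45 to 1.56 with CpG ODN and 0.91 to 0.98 with medium. That mean includes Ccl3 and Ly6d, which differed by 2.00 and 1.18. The part of dendritic cell number was not tested.

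The pathway from the receptor itself was covered by 29 tested genes, 10 called higher and 3 lower. Tlr9 differed by 0.98 ± 0.36 on 3 CpG ODN and 2 medium arrays and was not called (adjusted p = 0.0665). Tlr7, the related sensor of RNA, lay at 4.32, 3.91 and 4.21 against 1.53, 2.12 and 1.73 and rose by 2.36 ± 0.23, and the adaptor Myd88, named after its values were seen, rose by 1.65 ± 0.16 (adjusted p = 1.78e-07 and 1.78e-07). At the end of the pathway the AP-1 subunit Jun lay at 0.77, 1.27 and 0.61 against -1.01, -1.64 and -2.02 and rose by 2.44 ± 0.22, and the NF-kB cofactor Nfkbiz rose by 1.98 ± 0.21 (adjusted p = 4.75e-08 and 4.28e-07). Mapk14, the p38 kinase, fell by 0.81 ± 0.16 (adjusted p = 0.00119). Ap3b1, part of the adaptor complex that sorts endosomal cargo, fell by 0.61 ± 0.16. The call for Ap3b1 was lost without CpG ODN repeat 3 or medium repeat 3 (adjusted p up to 0.0633). Of 43 interferon response genes 35 were called higher and 1 lower, with a median of 2.28.

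The control ODN sets apart what an ODN without CpG motifs does from plain culture. It differed from medium in 1 of 9526 genes (0.0105%), Dqx1, which was lower by 1.95 ± 0.28 on 2 arrays against 2, and 604 genes had an unadjusted p below 0.05. CpG ODN against control ODN gave 1492 calls of 9494 (15.7%), 561 higher (5.91%) and 931 lower (9.81%). That comparison shares the CpG ODN arrays with the one against medium, so its values are only set side by side. Against the control ODN and against medium in turn, the difference was 1.74 ± 0.35 and 2.42 ± 0.35 for Atic, 1.59 ± 0.35 and 2.18 ± 0.35 for Fasn, and -2.74 ± 0.25 and -2.56 ± 0.25 for Ephx1. For Il15ra it was 1.97 ± 0.22 and 2.34 ± 0.22, for Fcrla -2.18 ± 0.37 and -2.34 ± 0.37, and for Tbx21 2.36 ± 0.30 and 2.70 ± 0.30.

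Of 108 genes named by size of change, 8 differed from the control ODN by less than 0.5 times their difference from medium. Vav1 differed by 1.30 ± 0.38 from medium and by -0.14 ± 0.38 from the control ODN, and Dlst by 0.80 ± 0.24 and 0.15 ± 0.24. The pairs were 1.49 ± 0.49 and 0.43 ± 0.49 for Il10ra, 1.57 ± 0.51 and 0.73 ± 0.51 for Gapdh, 0.68 ± 0.22 and 0.18 ± 0.22 for the ATP synthase subunit gene Atp5g2, and 0.93 ± 0.24 and 0.43 ± 0.24 for Cd44. Txn2 gave 1.10 ± 0.24 and 0.54 ± 0.24, and Uqcrh, a subunit of respiratory complex III, -0.87 ± 0.26 and -0.36 ± 0.26. The limit of 0.5 was set after the values were seen. None was called between the control ODN and medium, where the difference was 1.43 ± 0.38 in Vav1 and 1.07 ± 0.49 in Il10ra. All 8 lost their call against medium without medium repeat 2, in Vav1 at an adjusted p of 0.309 with a difference of 0.51. All 8 also lost that call without CpG ODN repeat 2, and Dlst, Il10ra, Gapdh, Atp5g2 and Uqcrh lost it without medium repeat 3.

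A direct test of the change in the difference from medium between 4 and 8 h called 365 of 9460 genes (3.86%), 239 shifted upwards (2.53%) and 126 downwards (1.33%). Among the 709 metabolic, surface and lymphocyte genes 25 shifted upwards and 16 downwards. Fcrla stood at 4.61 ± 0.60 (SD, n = 4) with CpG ODN and 4.82 ± 0.41 with medium at 4 h, and at 3.03 ± 0.34 and 5.36 ± 0.66 (SD, n = 3) at 8 h, and the change of its difference was -2.13 ± 0.49 (adjusted p = 0.0142). Tbx21 stood at 1.10 ± 0.21 and 0.98 ± 0.29 at 4 h and at 3.66 ± 0.31 and 0.95 ± 0.38 at 8 h, a change of 2.59 ± 0.40 (adjusted p = 0.000431). In Fasn the CpG ODN mean moved from -0.60 ± 0.28 to 0.23 ± 0.40 while the medium mean moved from -1.15 ± 0.24 to -1.95 ± 0.99, a change of 1.62 ± 0.46 (adjusted p = 0.0481). The 2 group means of Fasn moved in opposite directions, but change over time within a group was not tested. The medium arrays of 8 h also spread widely (SD 0.99). In Ephx1 the medium mean was -0.17 ± 0.47 at 4 h and -0.34 ± 0.06 at 8 h, and the CpG ODN mean moved from -0.94 ± 0.22 to -2.90 ± 0.55, a change of -1.79 ± 0.33 (adjusted p = 0.00201). The change of Cd69, 1.61 ± 0.59, was not called (adjusted p = 0.143), nor was that of Swap70, 0.14 ± 0.31, which stood at 3.23 ± 0.63 against 1.74 ± 0.50 at 4 h already.

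**Figure D3:**
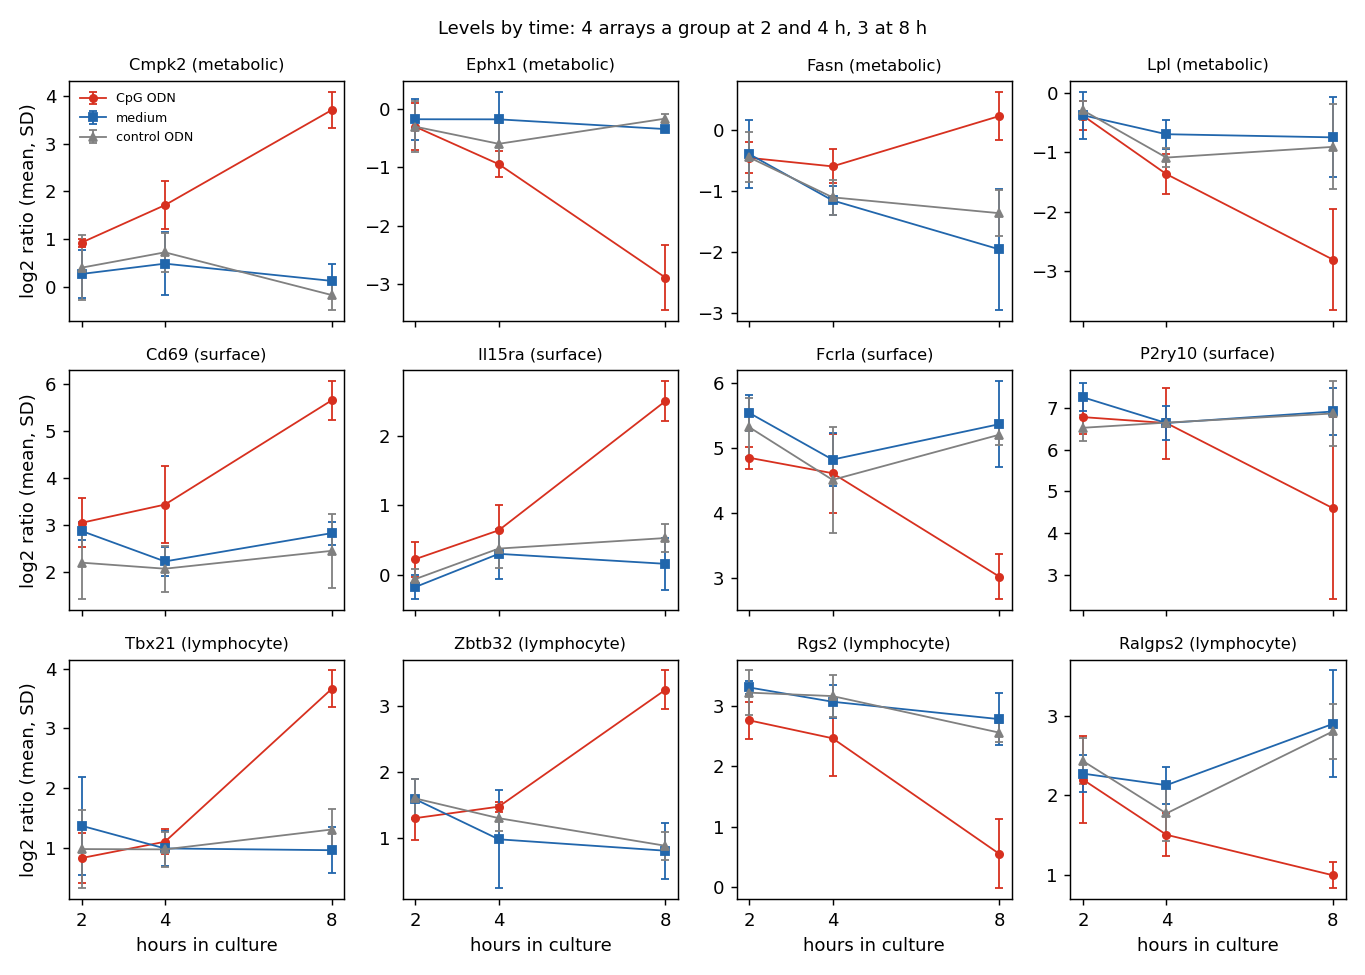
Mean levels (log2 ratio to the reference RNA, bars are SD) of 12 genes by hours in culture, with 4 arrays per group at 2 and 4 h and 3 at 8 h; the genes are the 4 with the largest differences among the leading genes of the metabolic, surface and lymphocyte lists. At 8 h medium and control ODN lie closer to each other than to CpG ODN in each panel.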

How the data were processed

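Spleen cell RNA (Cy5) was hybridised against Universal Mouse Reference RNA (Cy3) on 33 two-colour arrays, per the labels. The authors deposited a log ratio per probe and array, read here as log2. The log base and any background correction, spot filter or normalization were not given in the sources used here. Gene symbols come from the annotation of the array platform and may be dated: 14656 of 16720 probes have 1 symbol, and probes with several or none were left out. The symbols were checked against RefSeq through Entrez identifiers, and 0 changed. Values were centred per array on the median. Where a gene had several probes (511 of 9672 genes), the one measured on the most arrays stood for it.

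All 33 arrays, with repeat number within time as a block and then treatment, were fitted with limma 3.58.1 in R 4.3.3, which moderates variances over genes. Every adjusted p comes from this fit unless another setting is named. A gene was tested with at least 2 measured arrays in each compared group, p-values were adjusted by Benjamini-Hochberg over all genes tested, and the threshold was 0.05. The fit was also run on simulated data in which same-numbered repeats of a time shared an effect. The measured arrays do not show this in every pair, so that run cannot tell whether the block suits them. Alternatives covered the block, centring, quantile normalization, array weights, probes, missing values, the samples fitted and each array left out. Genes were named by size of change: up to 3 rises and 3 falls per list among called genes on all 6 arrays, up to 3 each way of the Toll-like receptor list, and the 6 largest rises and falls over all genes. Of these, values are given mainly for those that show each group, and genes outside the rule are marked. The members and lists were chosen with earlier results of these data known.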

Additional observations from a re-analysis of the deposited data

Results flagged for a closer look

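For 39 of the 108 genes named by size of change, the difference between CpG ODN and medium at 8 h differed from that at 4 h in a direct test of the change (limma, adjusted p below 0.05 over 9460 genes). Over all genes 365 of 9460 were called in that test (3.86%). The 108 were picked by the size of the difference at 8 h, on arrays that also enter this test. Their share is therefore no independent result. The values below are the changes of the log2 difference from 4 to 8 h, from 3 arrays in each group of the later time and 4 of the earlier, and a positive value is a shift upwards. They are given without explanation.

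Among metabolic genes the difference shifted upwards by 2.36 in the nucleotide kinase gene Cmpk2 (adjusted p = 0.000634), by 2.33 in the purine synthesis gene Atic (adjusted p = 0.00655), by 1.62 in Fasn (adjusted p = 0.0481) and by 1.46 in Samhd1. The shift was 1.30 in mitochondrial thioredoxin Txn2, 1.24 in Shmt2 and 0.86 in Mthfd2 of the one-carbon pathway, 1.17 in Dlst and 0.94 in Idh3a of the tricarboxylic acid cycle. It shifted downwards in Mgst1 (-2.02), Ephx1 (-1.79), Lpin1 (-1.47), Lpl (-1.39), Abca1 (-1.34), Adssl1 (-1.15) and Ldhb (-1.01), with an adjusted p of 0.0011 in Mgst1 and 0.0131 in Abca1.

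Among surface genes the shift was 2.10 in H2-T24, 2.04 in death receptor gene Tnfrsf21, 2.01 in Il15ra, 1.94 in the immunoproteasome gene Psmb10, 1.39 in the IgG receptor gene Fcgr1 and 1.08 in Tapbp. It was -2.13 in Fcrla and -1.81 in Cd93.

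Among lymphocyte genes the shift was 2.59 in Tbx21 (adjusted p = 0.000431), 2.04 in Cdkn2d, 1.87 in Zbtb32, 1.06 in Pik3ap1 and 1.06 in Slfn3. The downward shifts were -1.63 in Rgs2 and -1.28 in Ralgps2.

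In the innate and interferon genes the shift was 4.24 in the chemokine gene Cxcl11 (adjusted p = 7.12e-09), 3.17 in Ifit3, 2.94 in Gbp2, 2.53 in Ifit1, 2.50 in Il6, 1.65 in Jun and 1.59 in Tlr7. Jhy, a gene outside the lists that was among the 6 largest falls at 8 h, shifted by -1.97 (adjusted p = 0.0147).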

How the results depend on the processing

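The repeat number was fitted as a block. The numbers are no proven pairing for CpG ODN and medium: over 7408 genes, deviations of same-numbered CpG ODN and medium arrays correlated at 0.06, -0.04 and 0.53 for repeats 1, 2 and 3, against 0.44, 0.59 and 0.60 for medium and control ODN. Without the replicate block the calls were 1117 against medium in place of 1700, 0 for the control ODN against medium (1 with it), 226 for the change from 4 to 8 h (365 with it) and 949 against the control ODN (1492 with it, an alternative added after seeing the data). The count against medium was 1097 with quantile normalization, 2618 with array weights, 248 when fitted on the compared groups only (181 higher and 67 lower) and 1001 on the arrays of 8 h only. It ran from 895 to 1886 over fits without 1 array. The control ODN count against medium was 0 with quantile normalization and on genes measured on every array, 2 with array weights, and 0 to 3 without 1 array. The count of changes from 4 to 8 h was 859 with array weights and 196 to 706 without 1 array. The cause of these differences was not tested, and the restricted fits also held fewer samples. Other settings (no centring, the mean of all probes of a gene, every probe, a random block) kept the count against medium within 1.5 times. No named difference changed sign in any setting. All 108 named genes were called, 42 of them under every setting run and 67 in every fit without 1 array. The fit on the compared groups only lost 66 of the 108 calls and kept 42. With 3 arrays in a group the precision is limited, and 1757 tested genes lacked a value on at least 1 of the 6 arrays.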
